A study of Mus musculus with 44 samples.

Results

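Transcripts of 10 pluripotency transcription factors, *Pou5f1*, *Nanog*, *Sox2*, *Esrrb*, *Nr5a2*, *Tfap2c*, *Prdm14*, *Sall4*, *Tbx3* and *Zfp42*, were examined in single two-cell mouse embryos. They were taken by name from a table of 35269 genes, in which each name occurred once, and all 10 had a mean level high enough to enter the tests. The 44 embryos came from natural matings. The cKO females (Dppa2/4m-, on a C57Bl/6 background) carried a conditional allele that spans exon 2 of *Dppa4* to exon 7 of *Dppa2*, a stretch removed by Zp3-Cre, a recombinase driven by an oocyte promoter that acts in growing oocytes.

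There were 14 Dppa2/4+/+ embryos from control females and Dppa2/4+/+ males (WT), 15 Dppa2/4+/- embryos from cKO females and Dppa2/4+/+ males (HET1), 5 Dppa2/4+/- embryos from cKO females and Dppa2/4+/- males (HET2) and 10 Dppa2/4-/- embryos from the same matings as the latter (HOM). HET2 and HOM embryos were told apart by the authors from their *Dppa2* and *Dppa4* transcripts. The labels number 2 matings of each cross, and the embryos of a mating are called a litter here: WT embryos came in litters of 10 and 4, HET1 embryos of 7 and 8, and the HET2 and HOM embryos shared litters, with 4 and 3 in the first and 1 and 7 in the second. A WT or HET1 litter therefore holds a single group, so in comparisons with WT embryos litter is nested in the group, with 2 litters each, and the effect of treating litter as random is given beside the calls. The p-values measure the spread between embryos, many of which are littermates.

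Pluripotency factors are DNA-binding proteins that keep the cells of the inner cell mass and embryonic stem cells able to form every tissue. *Pou5f1* (Oct4), *Sox2* and *Nanog* form the core of this network, *Esrrb*, *Nr5a2*, *Tbx3*, *Sall4*, *Prdm14* and *Tfap2c* stabilise it or link it to other lineages, and *Zfp42* (Rex1) is a classical marker of it. In the mouse some of these factors are already present in the egg or switched on at zygotic genome activation in the two-cell embryo, well before the inner cell mass exists. *Dppa2* and *Dppa4* are themselves expressed in pluripotent cells, and the study sequenced the embryos to look for defects in zygotic genome activation when they are missing.

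The deposited values are log2 RPM (reads of a gene scaled to a common library total), from 247667 to 3163026 reads per embryo. A gene without reads was given the value of 0.9 read, which lay between -1.81 and 1.86 depending on depth, so all values below 1.86 were set to 1.86 (the common floor) before testing, and differences of low genes are understated. RPM is a share of an embryo's reads, so the amount of RNA per embryo is not measured. *Dppa2* had between 184 and 2144 reads in WT embryos and at most 7 in HOM embryos, and *Dppa4* between 79 and 499 and at most 5. The 8 markers of the two-cell stage were summed at 74.9 to 1039 RPM with no embryo at 0, and the 6 oocyte markers at 180 to 2098 RPM. Trophectoderm markers reached at most 20.95 RPM and blood markers 6.35 RPM, with *Ptprc* at 0 in all embryos. Of the 10 cumulus and granulosa markers, *Fshr* had no reads in any embryo and the list reached 116 RPM. Of these *Amhr2* averaged 3.75 to 5.17 log2 RPM in the 4 groups. The 5 primitive endoderm markers summed to between 4.23 and 199.6 RPM. Among the WT embryos, WT-j and WT-k stood apart with 9403 and 9169 genes detected, against 10591 or more in the other WT embryos. Of the HET1 embryos, HET1-l and HET1-k had as few, 9358 and 9522 at lower depth, and the other 40 embryos had over 10000. Calls that were lost without WT-j and WT-k are given without them too, and the main ones also without all 4.

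Per length, the 7 of 10 factors whose level averaged 3 log2 RPM or more were ordered. Dividing by the union of annotated exons, *Sall4* was highest in the 14 WT embryos at 4.19 ± 0.96 log2 RPM per kb (SD), followed by *Zfp42* at 4.02 ± 1.54, *Pou5f1* at 3.63 ± 1.38, *Nr5a2* at 3.25 ± 0.67, *Tfap2c* at 3.10 ± 1.12, *Tbx3* at 1.94 ± 1.09 and *Esrrb* at 0.67 ± 0.99. Neighbours in this order were compared by an exact two-sided permutation of signs over the 14 embryos, adjusted over 6 pairs. The order came from the same embryos, so the pairs and the direction of each difference were set by the values tested. Littermates were treated as independent. *Tfap2c* exceeded *Tbx3* by 1.16 on the log2 scale in 13 of 14 embryos (adjusted p = 0.0022), and *Tbx3* exceeded *Esrrb* by 1.28 in 10 of 14 (adjusted p = 0.00769). Among the first 5 factors no neighbouring pair differed beyond its spread (adjusted p of 0.68 to 0.745 in the same exact permutation test). Without WT-j and WT-k, *Tfap2c* moved ahead of *Nr5a2*, and *Pou5f1* exceeded *Tfap2c* by 0.80 in 11 of 12 embryos (adjusted p = 0.00293 in an exact permutation test), as did *Nr5a2* over *Tbx3* by 1.07 in 12 of 12 (adjusted p = 0.00293, exact permutation). With the longest transcript as the length, *Pou5f1* came first at 4.35 log2 RPM per kb, again without a difference from *Sall4* beyond the spread.

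**Figure D1:**
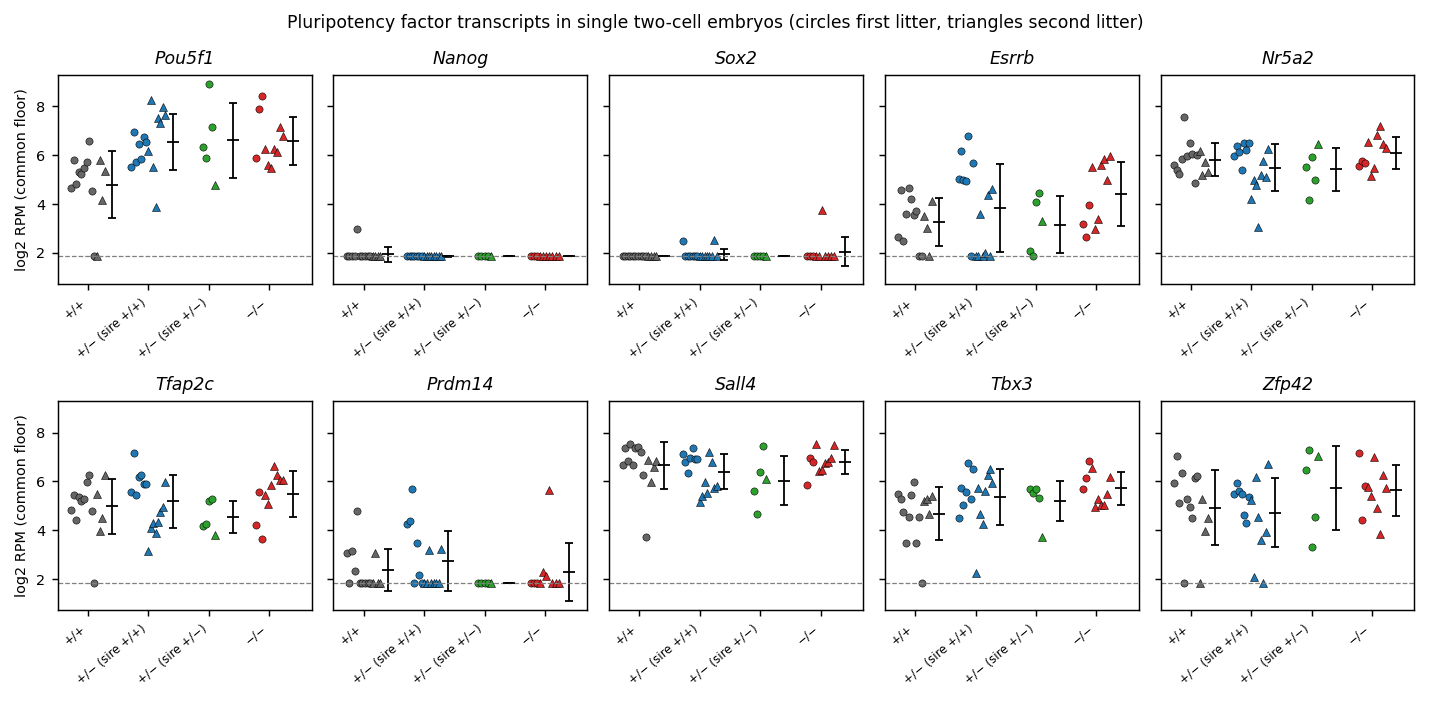
Level of each factor in every embryo, as log2 RPM with the common floor (dashed line, 1.86), by *Dppa2/4* genotype. Each circle is an embryo of the first litter and each triangle one of the second litter of its cross, and bars give the mean and SD. *Pou5f1* averaged 4.80 in +/+ embryos and between 6.54 and 6.61 in the other groups, whereas *Nanog* and *Sox2* lay on the floor in nearly all embryos.

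*Nanog* (chromosome 6, 122707489 to 122714633, GRCm38, forward strand), which encodes the homeodomain protein that secures the pluripotent state, had reads in 4 of 44 embryos. WT-e had 25 reads (2.98 log2 RPM), a HET1 and a HET2 embryo had 3 each and another HET2 embryo had 1. All 10 HOM embryos were without *Nanog* reads, where 3 reads, the least that can be told from 0, correspond to between 0.984 and 7.17 RPM. *Sox2* (chromosome 3, 34650405 to 34652461, forward strand), the partner of Oct4 on DNA, had reads in 14 embryos and never more than 9, which was in HOM-f. *Prdm14* (chromosome 1, 13113457 to 13127163, reverse strand), a repressor needed for germ cell specification, was detected in some embryos and not in others of the same group. It had at least 3 reads in 5 of 14 WT, 7 of 15 HET1, 1 of 5 HET2 and 3 of 10 HOM embryos. The most were in WT-e (87 reads) and HET1-c (73 reads), then in WT-a, WT-l and HOM-g (25 reads each). Differences between groups in these 3 genes were not detectable at this depth by limma on the floored values.

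*Pou5f1* (chromosome 17, 35506018 to 35510772, forward strand), which encodes Oct4, was the only one of the 10 factors that passed the test in a comparison between genotypes. In WT embryos it ranged from 1.86 to 6.57 log2 RPM with a median of 5.26. HET1 embryos ranged from 3.89 to 8.27 with a median of 6.54. The 5 HET2 embryos had 4.77, 5.90, 6.33, 7.13 and 8.91, and HOM embryos ranged from 5.48 to 8.42 with a median of 6.26. The groups overlapped, but 14 of 15 HET1, 4 of 5 HET2 and 10 of 10 HOM embryos lay above the WT median, and 7, 2 and 4 of them above the highest WT embryo.

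The mean of *Pou5f1* was 6.54 ± 1.15 in HET1 (SD, n = 15) and 4.80 ± 1.38 in WT embryos (n = 14), a difference of 1.74 on the log2 scale (SE 0.45, adjusted p = 0.0185, limma with Benjamini-Hochberg adjustment over 16412 genes), or 3.34-fold. Here 4.54% of all genes tested (745) passed, 409 higher and 336 lower in HET1 embryos, and 1 of the 10 factors. This number was 0 with litter as a random effect, 6 without HET1 litter 2 and 4054 without the common floor. The differences from the same WT embryos were 1.81 in HET2 (SE 0.63, adjusted p = 0.429) and 1.79 in HOM embryos (SE 0.50, adjusted p = 0.12), which did not pass, with 95% intervals from 0.54 to 3.08 and from 0.78 to 2.80. In those comparisons 0.0305% and 0.0183% of genes passed, and 0 of the 10 factors did (limma). In HOM embryos the genes called included *Dppa2* and *Dppa4*, from which this group was assigned. The 5 genes called in HET2 and the 3 in HOM embryos became 95 and 249 without WT litter 1, 80 in each without the first litter of HET2 and HOM embryos, 24 and 41 without their second litter, and 114 and 6 with array weights. Leaving out single HET2 embryos gave 3 to 6 genes, except 38 without HET2-e. At an unadjusted p under 0.05 there was 1 factor in HET2 and there were 2 in HOM embryos, and limma voom on recovered reads also called 0. Without the first litter of HET2 and HOM embryos the HET2 difference rests on 1 embryo and was -0.03.

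Other measures differed between these groups, and their part in the *Pou5f1* difference was not tested. HET1 embryos had a median of 528166 reads and WT embryos of 1770009, mitochondrial reads made up a median of 11.6% and 15.3%, and the two-cell markers, all 8 with reads in both, summed to a median of 361.5 and 188.1 RPM. In HET2 and HOM embryos these markers had medians of 393.2 and 158.2 RPM, and in HET1 litters 1 and 2 of 105.1 and 677.7 RPM.

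The call in HET1 embryos rests in part on which litters and embryos enter. WT-k had no *Pou5f1* reads and WT-j had 5, and without both the difference was 1.25 (adjusted p = 0.0697, limma), while those of HET2 and HOM embryos were 1.32 and 1.30. Without all 4 embryos with fewer than 10000 genes, among them HET1-k with the lowest *Pou5f1* value of its group, the HET1 difference was 1.38 and passed (adjusted p = 0.0447), beside 310 genes called. Without HET1 litter 2 it was 1.46 (adjusted p = 0.175), without WT litter 1 it was 2.24 (adjusted p = 0.0845), and with litter as a random effect it was 1.80 (adjusted p = 0.327). Over all 18 alternatives the *Pou5f1* difference between HET1 and WT embryos stayed between 1.25 and 2.24. By litter, *Pou5f1* averaged 5.00 and 4.30 in WT, 6.26 and 6.78 in HET1, 7.07 and 4.77 (1 embryo) in HET2 and 7.39 and 6.24 in HOM embryos.

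**Figure D2:**
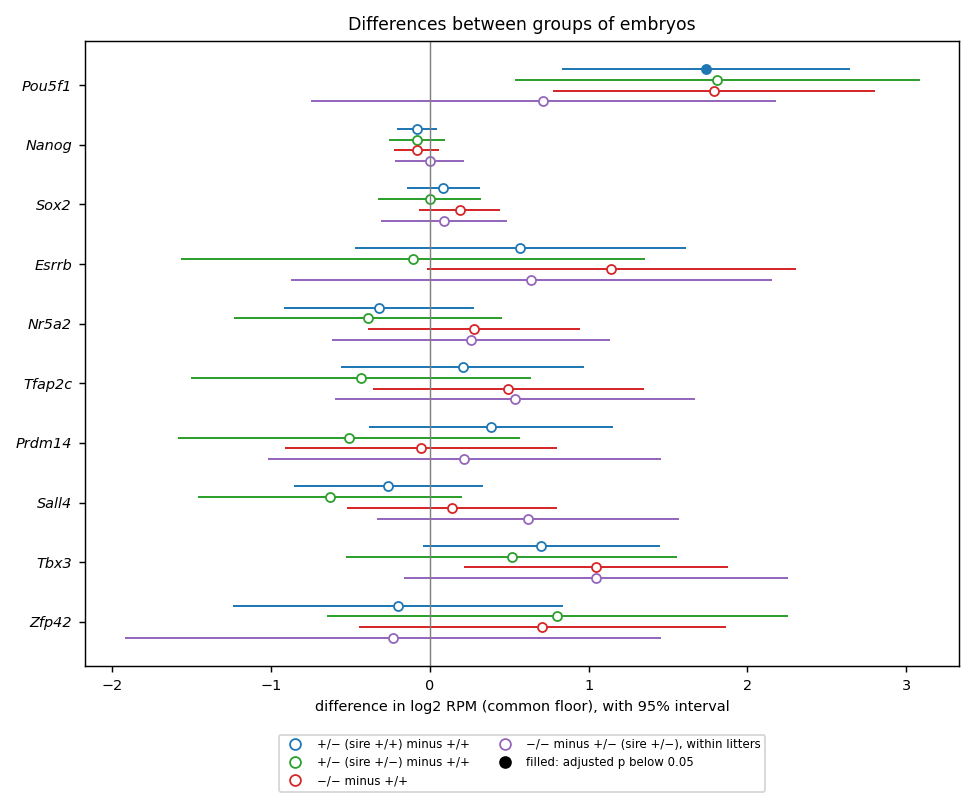
Differences in log2 RPM (common floor) between groups for each factor, with 95% intervals from limma (horizontal axis, log2 scale), filled where the adjusted p is below 0.05. *Pou5f1* lay 1.74, 1.81 and 1.79 above +/+ embryos in the 3 groups from cKO females, and only the first of these passed the test.

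*Pou5f1* shares its locus with *Gm19553*, an antisense gene on the reverse strand (chromosome 17, 35509077 to 35510551), and reads were counted without regard to strand. Of the 494 exonic bases of *Gm19553*, 317 (64.2%) lie within *Pou5f1* exons. The count for *Gm19553* equalled 21.9% of the count for *Pou5f1* over all embryos, 908 against 4142 reads, with median ratios of 20.9% in WT, 20.5% in HET1, 20.6% in HET2 and 22.8% in HOM embryos. *Gm19553* was also the gene most like *Pou5f1* across the 44 embryos (Pearson's r = 0.924 among 6912 genes). It was 1.40 higher in HET1 than in WT embryos on the log2 scale (SE 0.39, adjusted p = 0.0305, limma), and at 1.44 with litter as a random effect (adjusted p = 0.39). Without WT-j and WT-k it was at 1.24 (adjusted p = 0.0855). Reads from the 2 strands cannot be told apart in these values. *Sall4* also overlaps *Gm14261*, and *Tbx3* overlaps *Tbx3os1*, each on the opposite strand, but whether their exons share bases was not measured. *Sox2* lies within *Sox2ot* on the same strand.

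**Figure D3:**
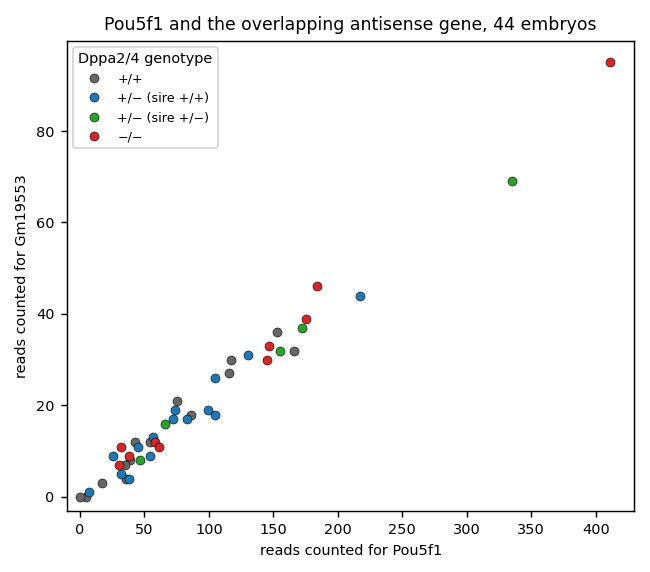
Reads counted for *Pou5f1* (horizontal axis) and for the overlapping antisense gene *Gm19553* (vertical axis) in each of the 44 embryos, coloured by *Dppa2/4* genotype. The points of all groups scatter about the overall ratio of the counts, 21.9%, from 0 reads in WT-k to 411 *Pou5f1* reads in a -/- embryo.

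*Tbx3* (chromosome 5, 119670669 to 119684724, forward strand), a T-box factor that supports self-renewal, did not pass the test. It ranged from 1.86 to 5.99 log2 RPM in WT embryos (median 4.97), from 2.25 to 6.76 in HET1 (median 5.60) and from 4.95 to 6.83 in HOM embryos (median 5.60), and was at 3.74, 5.32, 5.52, 5.67 and 5.69 in the 5 HET2 embryos. All groups overlapped, with 9 of 10 HOM embryos above the WT median. The difference of HOM from WT embryos was 1.05 (SE 0.41, adjusted p = 0.235, limma), and that of HET1 was 0.70 (SE 0.37, adjusted p = 0.309). *Esrrb* (chromosome 12, 86361117 to 86521628, forward strand), an orphan nuclear receptor, was 1.14 higher in HOM than in WT embryos (SE 0.58, adjusted p = 0.349), and differed by 0.57 in HET1 and -0.11 in HET2 embryos (adjusted p = 0.575 and 1). Above the highest WT embryo lay 5 of 10 HOM, 6 of 15 HET1 and 0 of 5 HET2 embryos. The 6 HET1 embryos were all of litter 1, and the 5 HOM embryos were all of their second litter. HOM embryos averaged 3.27 for *Esrrb* in their first litter and 4.89 in their second.

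None of the other 4 detected factors passed either. *Sall4* (chromosome 2, 168748332 to 168767943, reverse strand), a zinc finger protein, averaged 6.66 ± 0.96 log2 RPM in WT, 6.40 ± 0.73 in HET1, 6.04 ± 1.02 in HET2 and 6.80 ± 0.49 in HOM embryos (SD). *Nr5a2* (chromosome 1, 136842571 to 136960448, reverse strand), an orphan nuclear receptor able to stand in for Oct4 in reprogramming, averaged 5.81 ± 0.67, 5.49 ± 0.97, 5.42 ± 0.88 and 6.09 ± 0.67 in the same order. *Tfap2c* (chromosome 2, 172549593 to 172558622, forward strand), a factor of the trophoblast and germ line, averaged 4.98 ± 1.12, 5.19 ± 1.09, 4.55 ± 0.67 and 5.48 ± 0.94. *Zfp42* (chromosome 8, 43295063 to 43306980, reverse strand) ranged from 1.86 to 7.02 in WT embryos, with means of 4.93 ± 1.54, 4.73 ± 1.40, 5.73 ± 1.72 and 5.64 ± 1.04. For these 4 factors the differences from WT embryos lay between -0.63 and 0.80, and their 95% intervals reached from -1.50 to 2.26, so that differences up to that size lay within the intervals.

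HOM and HET2 embryos are littermates that differ in the allele received from the sire. Fitted within their 2 litters, 0.0183% of all genes passed, and 0 of the 10 factors did (limma). The 3 genes that passed included *Dppa2* and *Dppa4*, from which the embryos were sorted into these groups. At an unadjusted p under 0.05 there were 0 factors too, beside 790 of 16412 genes, and 0 by limma voom. *Tbx3* was 1.05 higher in HOM embryos (95% interval -0.16 to 2.26, adjusted p = 0.978), *Pou5f1* 0.71 (-0.75 to 2.18, adjusted p = 1) and *Zfp42* differed by -0.23 (-1.92 to 1.45). Without litter in the model the *Pou5f1* difference was -0.02. With 5 HET2 embryos, a single one of them in the second litter, the intervals are wide. In that litter HET2-e had 3.74 for *Tbx3* against 4.95 to 6.54 in its 7 HOM littermates, and 4.77 against 5.48 to 7.15 for *Pou5f1*.

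The 2 litters of HET1 embryos share both parental genotypes, and 3 of the 10 factors passed the test between them. *Esrrb*, *Nr5a2* and *Tfap2c* were lower in litter 2, and 1 of the 10 factors, *Pou5f1*, had a higher mean there. *Esrrb* had a median of 5.02 log2 RPM in litter 1 (lowest 1.86, highest 6.79) and of 1.94 in litter 2 (1.86 to 4.62), where 5 of 8 embryos had at most 4 reads. The litters overlapped through HET1-f of litter 1, which had 1 read. *Tfap2c* ranged from 5.43 to 7.17 in litter 1 (median 5.91) and from 3.14 to 5.97 in litter 2 (median 4.32), and 7 of the 8 embryos of litter 2 lay below all of litter 1. *Nr5a2* ranged from 5.38 to 6.51 (median 6.21) and from 3.08 to 6.24 (median 5.04), with 6 of 8 embryos of litter 2 below all of litter 1.

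On the log2 scale the change from litter 1 to litter 2 was -2.31 for *Esrrb* (SE 0.62, adjusted p = 0.0083), -1.63 for *Tfap2c* (SE 0.47, adjusted p = 0.0131) and -1.24 for *Nr5a2* (SE 0.36, adjusted p = 0.0142, limma, n = 7 and 8). *Sall4* at -0.96 (adjusted p = 0.0871), *Prdm14* at -1.19 (adjusted p = 0.109), *Zfp42* at -0.98 (adjusted p = 0.368) and *Pou5f1* at 0.53 (adjusted p = 0.628) did not pass. Of all genes tested 16.7% passed in this comparison, 822 higher and 1922 lower in litter 2, against 3 of the 10 factors, all lower. The median change over the 6919 genes that averaged 3 log2 RPM or more was -0.38, which median scaling brought to -0.04. Under that scaling *Esrrb* was at -2.12 (adjusted p = 0.00912), *Tfap2c* at -1.28 (adjusted p = 0.0369) and *Nr5a2* at -0.89 (adjusted p = 0.0624), and with limma voom on recovered reads only *Esrrb* passed (adjusted p = 0.0291). With the floor at 3 reads of the shallowest embryo *Esrrb* was at -1.49. *Sall4* passed when only genes averaging 3 log2 RPM or more were tested (adjusted p = 0.0432). Without HET1-k and HET1-l, together with WT-j and WT-k, *Sall4* was at -1.10 and passed (adjusted p = 0.0118), *Esrrb* and *Tfap2c* still passed and *Nr5a2* was at -0.98 (adjusted p = 0.058).

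Other measures moved with these litters, and their part in the result was not tested. The two-cell markers had a median sum of 678 RPM in HET1 litter 2 (range 261 to 1039) and of 105 RPM in litter 1 (75.4 to 361), with reads for all 8 of 8 in both. The 6 oocyte markers had medians of 1071 and 517 RPM, the 10 cumulus and granulosa markers 14.7 and 41.6 RPM, and the 5 primitive endoderm markers 54.0 RPM (4.23 to 87.1) and 115.4 RPM (55.7 to 199.6). Of the cumulus and granulosa markers only 4 and 3 had reads in litters 2 and 1, and of the primitive endoderm markers 4 and 2. *Amhr2* alone averaged 3.86 and 5.41 log2 RPM there, so the cumulus and granulosa sum was mostly this gene. *Dppa2* and *Dppa4* were lower in litter 2 by -1.56 and -1.79 on the log2 scale (adjusted p = 0.00144 and 6.58e-05, limma). Median depth was 524828 and 663861 reads, and the share of mitochondrial reads had a median of 9.44% in litter 2 and 15.9% in litter 1.

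**Figure D4:**
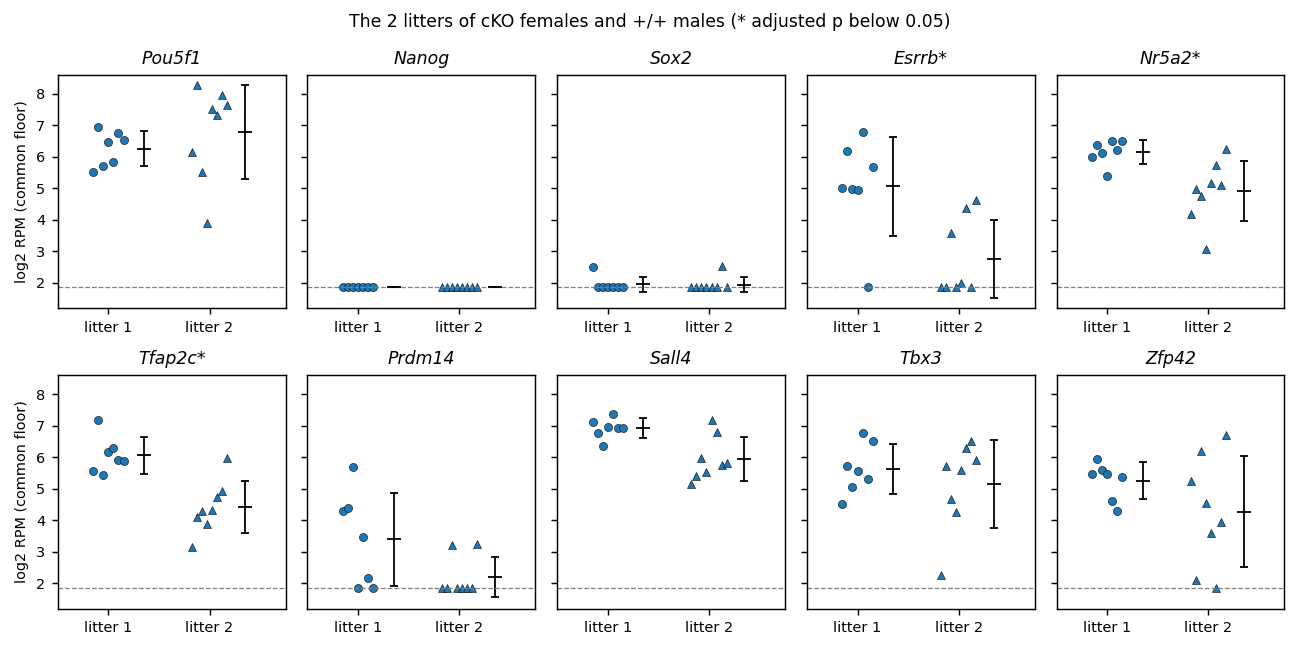
Level of each factor in the 2 litters of cKO females and +/+ males, as log2 RPM with the common floor (dashed line), 7 embryos in litter 1 and 8 in litter 2, with mean and SD. An asterisk marks an adjusted p below 0.05: *Esrrb*, *Nr5a2* and *Tfap2c* were lower in litter 2 by 2.31, 1.24 and 1.63.

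In the other matings no factor passed between litters. Of all genes 2.57% passed between the WT litters and 4.94% between the litters of HET2 and HOM embryos, and 0 of the 10 factors in either (limma). At an unadjusted p under 0.05 there were 0 and 1, beside 2431 and 3324 of 16412 genes. By limma voom 0 factors passed, beside 901 and 951 genes. *Zfp42* was at -1.44 in WT litter 2 (SE 0.79, adjusted p = 0.422), where WT-k had no reads, and at -0.67 without WT-j and WT-k (adjusted p = 1). *Pou5f1* was at -1.47 in the second litter of HET2 and HOM embryos (SE 0.68, adjusted p = 0.21), and *Esrrb*, *Nr5a2* and *Tfap2c* were at 1.22, 0.81 and 0.78 (adjusted p of 0.342, 0.254 and 0.441). Litter numbers are names and carry no order between matings.

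Across embryos of a litter, 6 of the 7 factors above 3 log2 RPM tended to be high in the same embryos. After centring on litter means, the 15 pairs among *Pou5f1*, *Esrrb*, *Nr5a2*, *Tfap2c*, *Sall4* and *Tbx3* all had a positive Pearson's r across the 44 embryos, from 0.249 to 0.655 with a median of 0.514. All 6 pairs with *Zfp42* were negative, from -0.441 to -0.17. By two-sided permutation within litters (100000 resamples, adjusted over 21 pairs), 12 pairs passed for r and 15 for Spearman's rho. Of these, 11 and 13 were among the 15 pairs without *Zfp42*, and 1 and 2 among the 6 pairs with it.

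*Tfap2c* and *Sall4* had the highest r over all embryos, with r = 0.655 and rho = 0.518 within litters (adjusted p = 0.00185 and 0.00452 by permutation) and r = 0.703 without centring. *Esrrb* and *Tfap2c* had r = 0.544 and rho = 0.618 (adjusted p = 0.00179 and 0.00147, permutation) and r = 0.688 without centring. *Pou5f1* and *Tfap2c* had r = 0.549 and rho = 0.516 (adjusted p = 0.0036 and 0.00476, permutation) but r = 0.281 without centring, where *Pou5f1* and *Tbx3* had 0.563. *Nr5a2* and *Zfp42* had r = -0.441 and rho = -0.47 (adjusted p = 0.0197 and 0.00966, permutation) and r = -0.143 without centring. Without the 2 embryos farthest from the median of the first gene, these 4 values of r were 0.432, 0.59, 0.401 and -0.36.

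The strength of these relations depended on WT-j and WT-k. Of the 21 pairs 8 (38.1%) had an r of at least 0.5, beside 7.05% of all pairs among 6919 genes, and without these 2 embryos 2 pairs did (9.52%), beside 6.65%. Without them *Esrrb* and *Tfap2c* had the highest r at 0.531, and *Tfap2c* and *Sall4* had 0.47. The signs did not change: all 15 pairs stayed positive, with a median of 0.432, and all 6 with *Zfp42* negative. The share of mitochondrial reads was related to the 6 factors with r from -0.4 to -0.323 within litters and to *Zfp42* with r = 0.386, and r with log2 total reads was between -0.398 and -0.0622 for the 6 and 0.204 for *Zfp42*. The part of either measure in the relations between factors was not tested.

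**Figure D5:**
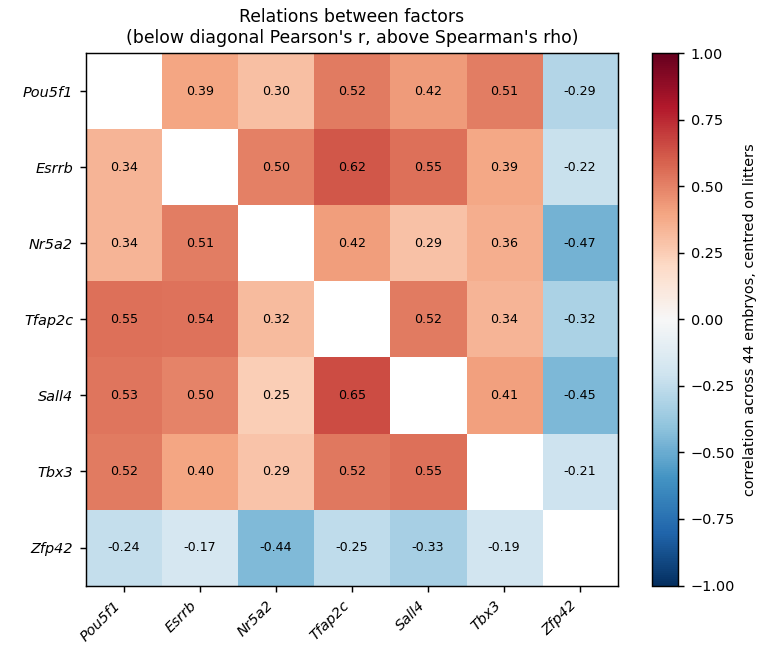
Correlation between factors across 44 embryos after centring on litter means, Pearson's r below the diagonal and Spearman's rho above it (colour scale from -1 to 1). The 15 pairs without *Zfp42* were positive, up to 0.655, and the 6 with *Zfp42* negative.

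For each detected factor, the gene outside the set with the most similar pattern over the 44 embryos is given as a description, among 6912 genes. It was *Amhr2*, also on the list of cumulus and granulosa markers, for *Esrrb* (r = 0.817, and 0.798 within litters), *Ccdc137* for *Nr5a2* (0.796 and 0.668), *Ppox* for *Tbx3* (0.797 and 0.799) and *Upf3b* for *Zfp42* (0.746 and 0.772). *Tfap2c* and *Sall4* had the same one, *Alppl2*, an alkaline phosphatase gene, at r = 0.817 and 0.807 (0.766 and 0.799 within litters). In the 14 WT embryos alone, WT-j and WT-k included, these 2 values were 0.906 and 0.919. There *Amhr2* had 0.8155, *Ccdc137* 0.579, *Ppox* 0.794 and *Upf3b* 0.758 with their factors. Of these genes *Ccdc137*, *Alppl2* and *Amhr2* fell in HET1 litter 2, by 2.19, 2.08 and 1.55 on the log2 scale (adjusted p of 0.00112, 0.00272 and 0.0401, limma), where 16.7% of all genes passed. They were chosen for likeness to the factors over all embryos, these litters included, so their fall is not independent of that choice.

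Of 26 other genes of the pluripotency network, such as partners of the factors on DNA, 23 could be tested. In HET1 embryos 3 were higher and 1 lower than in WT embryos, beside 4.54% of all genes. *Tcl1*, a coactivator of Akt, was 2.44 higher on the log2 scale (SE 0.64, adjusted p = 0.02), *Mybl2*, a cell cycle factor, 1.31 higher (adjusted p = 0.0251), *Stat3*, which carries the LIF signal, 1.17 higher (adjusted p = 0.0361) and *Ctnnb1*, which encodes beta-catenin, was at -0.69 (adjusted p = 0.0366, limma). None of these 4 passed once litter entered as a random effect (adjusted p of 0.327, 0.405, 0.433 and 0.343), and without HET1 litter 2 *Tcl1* was at 0.58, *Mybl2* at 1.58, *Stat3* at 0.67 and *Ctnnb1* at -0.29, again without passing (adjusted p of 0.715, 0.101, 0.412 and 0.569). Without WT litter 1 *Tcl1* was at 1.26 (adjusted p = 0.707). Without WT-j and WT-k *Mybl2* was at 0.98 and *Stat3* at 0.86, and neither passed (adjusted p of 0.0665 and 0.123). Without all 4 embryos with few genes none of the 4 passed (adjusted p of 0.0522 to 0.126). The median difference of the list was 0.35, beside 0.05 over all genes and 0.098 over those averaging 3 log2 RPM or more. By limma voom 6 of 23 passed in HET1 embryos, beside 2520 of 16412 genes. In HOM and HET2 embryos against WT embryos and between HOM and HET2 embryos 0 of 23 passed (limma), beside 0.0183%, 0.0305% and 0.0183% of all genes. At an unadjusted p under 0.05 there were 7, 3 and 0, beside 2379, 1399 and 790 of 16412 genes, and by limma voom 0. Over all embryos the highest mean levels were those of *Rif1* (10.6 log2 RPM), *Tcl1* (8.74), *Klf17* (8.34) and *Ctnnb1* (7.16).

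*Tcl1* also varied between litters, at 11.49 in HET1 litter 2 and 8.01 in litter 1 (adjusted p = 6.58e-05), and at 7.71 and 10.10 in the second and first litters of HET2 and HOM embryos (adjusted p = 0.0152, limma, and 0.0868 by limma voom). In HET1 litter 2, *Smad1* was higher by 1.70 and *Klf2* and *Ctnnb1* were at -1.30 and -0.77 (adjusted p of 0.0244, 0.0315 and 0.0247, limma). The list thus had 2 higher and 2 lower beside 16.7% of all genes. Its median was -0.27, beside -0.06 over all genes and -0.38 over those averaging 3 log2 RPM or more. Between the WT litters 0 of 23 passed (limma), beside 2.57% of all genes. There were 4 at an unadjusted p under 0.05, beside 2431 of 16412 genes, and 2 by limma voom, beside 901. Between the litters of HET2 and HOM embryos 1 of 23 passed, beside 4.94% of all genes. *Klf2* and *Ctnnb1* no longer passed in HET1 litter 2 under median scaling (adjusted p of 0.0538 and 0.322), nor *Ctnnb1* by limma voom (adjusted p = 0.28), nor *Smad1* and *Klf2* with the floor at 3 reads of the shallowest embryo, at 0.48 and -0.28 (adjusted p of 0.406 and 0.472).

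Of 22 genes that the factors are known to act on or that mark pluripotent cells, 20 could be tested. In HET1 embryos *Dppa3*, a maternal protein that protects methylated DNA, was 0.71 higher than in WT embryos (10.79 against 10.09, adjusted p = 0.0444, limma), 1 of 20 beside 4.54% of all genes, with a median difference of -0.004 beside 0.05. The *Dppa3* difference was 0.74 with litter as a random effect, 0.46 without HET1 litter 2 and 0.68 without WT-j and WT-k, and passed in none of these (adjusted p of 0.452, 0.366 and 0.0732). By limma voom 4 of 20 passed in HET1 embryos, beside 2520 of 16412 genes, and *Dppa3* did not (adjusted p = 0.0718). In HET1 litter 2 there were 6 lower and 0 higher: *Dppa5a* at -2.31 (adjusted p = 0.00608), *Trim71* at -2.20 (adjusted p = 1.75e-05), *Fgf4*, the growth factor released by pluripotent cells, at -1.80 (adjusted p = 0.00389), *Alpl* at -1.63 (adjusted p = 0.038), *L1td1* and *Fbxo15*, with a median of -0.19 beside -0.06 (limma). Of all genes 16.7% passed there, 1922 of 2744 lower, and the median over genes averaging 3 log2 RPM or more was -0.38. Under median scaling 5 of the 6 still passed, without *L1td1* (adjusted p = 0.0761), and with the floor at 3 reads of the shallowest embryo *Alpl* was at -0.36 (adjusted p = 0.51). In the second litter of HET2 and HOM embryos *Dppa5a* was 2.29 and *Fbxo15* 0.75 higher, and *Cdh1*, which encodes E-cadherin, at -2.13 (adjusted p of 0.0399, 0.0476 and 0.0325), 3 of 20 beside 4.94% of all genes. By limma voom only *Dppa5a* of these 3 passed. In HOM and HET2 embryos against WT embryos, between HOM and HET2 embryos and between the WT litters 0 of 20 passed (limma), beside 0.0183%, 0.0305%, 0.0183% and 2.57% of all genes. At an unadjusted p under 0.05 there were 2, 6, 2 and 5, beside 2379, 1399, 790 and 2431 of 16412 genes. By limma voom there were 2 between the WT litters, beside 901 genes, and 0 in the others. Over all embryos *Dppa3* (10.4), *Fbxo15* (8.78), *Mkrn1* (7.96) and *Lin28a* (6.08 log2 RPM) had the highest mean levels.

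Of 31 relatives from the same protein families, 20 could be tested and 11 were too low. Here 5 passed, all lower in HET1 litter 2: *Prdm15* at -1.88, *Pou2f2* at -1.59, *Pou6f1* at -1.56, *Pou2f3* at -1.48 and *Prdm10* at -1.37 (adjusted p between 0.00756 and 0.035, limma), with a median of -0.13 beside -0.06. That is 5 of 20 beside 16.7% of all genes, of which 1922 of 2744 were lower. The median over genes averaging 3 log2 RPM or more was -0.38 there. Under median scaling *Pou2f3* was lost (adjusted p = 0.0613), and with the floor at 3 reads of the shallowest embryo *Pou2f2*, *Pou2f3* and *Pou6f1* were at -0.51, -0.49 and -0.29 and did not pass (adjusted p of 0.0952, 0.0692 and 0.399). In all 6 other comparisons 0 of 20 passed (limma), beside 0.0183% to 4.94% of all genes. At an unadjusted p under 0.05 there were 1 to 3, beside 790 to 3324 of 16412 genes. By limma voom 1 passed in HET1 against WT embryos and 1 between the WT litters, beside 2520 and 901 genes, and 0 in the others. The most abundant relatives were *Yy1* (7.21 log2 RPM), a zinc finger factor from whose retrocopy *Zfp42* descends, *Yy2* (6.87), *Prdm4* (6.19) and *Prdm10* (5.25).

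Promoter sequences were compared because of calls in single comparisons and because *Zfp42* ran against the others within litters. *Esrrb* and *Nr5a2* passed only between the litters of HET1 embryos, and *Pou5f1* only between HET1 and WT embryos. The *Pou5f1* call was lost with litter as a random effect (adjusted p = 0.327, limma). The *Nr5a2* call was lost under median scaling (adjusted p = 0.0624, limma) and with limma voom (adjusted p = 0.0559). RefSeq promoters (GRCm38.p6) were matched by symbol for 6 of the 10 factors, and not for *Tfap2c*, *Prdm14*, *Sall4* and *Tbx3*. The 250 bases before the start site are given 5′ to 3′ in the direction of the gene, with motif matches in capitals: *Pou5f1* at chr17:35505782-35506031 (forward strand), *Esrrb* at chr12:86360867-86361116 (forward), *Nr5a2* at chr1:136960449-136960698 (reverse) and *Zfp42* at chr8:43307010-43307259 (reverse).
Pou5f1: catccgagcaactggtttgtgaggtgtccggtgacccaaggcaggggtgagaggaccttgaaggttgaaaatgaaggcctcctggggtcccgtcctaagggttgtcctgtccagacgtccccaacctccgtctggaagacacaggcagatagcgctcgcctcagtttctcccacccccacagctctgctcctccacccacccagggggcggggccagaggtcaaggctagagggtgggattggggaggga
Esrrb: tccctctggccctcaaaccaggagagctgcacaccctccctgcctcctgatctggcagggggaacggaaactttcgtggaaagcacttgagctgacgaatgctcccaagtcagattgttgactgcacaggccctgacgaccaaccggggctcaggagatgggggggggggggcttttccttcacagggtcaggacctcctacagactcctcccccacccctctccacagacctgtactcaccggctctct
Nr5a2: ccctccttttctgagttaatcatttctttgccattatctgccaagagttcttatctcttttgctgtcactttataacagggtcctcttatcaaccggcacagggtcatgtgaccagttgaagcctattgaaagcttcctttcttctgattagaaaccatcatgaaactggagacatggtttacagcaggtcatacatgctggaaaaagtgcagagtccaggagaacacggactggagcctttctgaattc
Zfp42: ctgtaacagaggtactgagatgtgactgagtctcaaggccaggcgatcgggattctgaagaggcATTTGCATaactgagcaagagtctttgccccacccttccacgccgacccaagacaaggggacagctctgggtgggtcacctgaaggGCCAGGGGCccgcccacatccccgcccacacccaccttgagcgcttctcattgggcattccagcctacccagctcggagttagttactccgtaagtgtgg

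Both strands were searched for the octamer ATGCAAAT bound by Oct4, the Sox motif ACAATGG, the motif TCAAGGTCA read by both Nr5a2 and Esrrb, GCCNNNGGC of Tfap2 proteins and GCCATNTTG of Yy1 and Zfp42. Only exact matches were counted, so a window without a match may still hold a variant of a site. The *Zfp42* window held an octamer, on the strand opposite to the gene and 186 bases before the start, and a Tfap2 motif 100 bases before it. The windows of *Pou5f1*, *Esrrb* and *Nr5a2* shown, and those of *Nanog* and *Sox2*, held no exact match. That of a second *Pou5f1* start site at chr17:35508557-35508806 held the Sox motif 158 bases before the start. No 2 motifs overlapped. Among 32851 promoter windows of the same length, 1.6% held the octamer, 3.02% the Sox motif, 0.387% the motif of Nr5a2 and Esrrb, 13.7% the Tfap2 motif and 1.33% that of Yy1 and Zfp42.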

How the data were processed

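Single-embryo mRNA-seq of 44 two-cell embryos (Smart-seq2) was used. The authors trimmed reads with Trim Galore 0.6.5 and cutadapt 2.3, mapped them to GRCm38 with HISAT2 2.1.0, filtered on mapping quality and counted reads over 35269 mRNA probes with SeqMonk, ignoring strand. The deposited unit is log2 RPM. Group and litter were taken from each label. Reads were recovered from the value of 0.9 read given to genes without reads (99.9997% of values whole within 0.05 read). The limit of 3 reads covers counting error only, as libraries carried no molecular identifiers. No 2 embryos held identical values.

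The 16412 genes whose mean log2 RPM was 0 or more were set to a common floor of 1.86 and tested with limma 3.58.1 in R 4.3.3 (eBayes with trend), with Benjamini-Hochberg adjustment at 0.05. One model held the 4 groups, another the 6 litters and HOM against HET2. The model of the groups was also run on simulated reads without litter differences, which cannot show how litters affect the calls. The paper's text names no test for differential expression. Members, lists, motifs and tests were chosen with earlier results of these data known. Genes named are the 10 factors, *Dppa2* and *Dppa4*, the nearest gene outside the set, and up to 4 genes of each list, those called with the largest difference or, with none called, with the highest level; further called genes and embryos were named after their values were seen. Alternatives covered the floor, filter, scaling, weights, voom on the recovered reads, litter, mating number and left-out litters or embryos; leaving out WT-j and WT-k, or all 4 embryos with fewer than 10000 genes detected, was added after the data were seen. Mating numbers do not pair litters: deviations of litters with the same number correlated at -0.817, -0.454 and 0.446. Lengths come from GENCODE annotation of GRCm38 and promoters from RefSeq. Figures were drawn with matplotlib 3.10.9.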

Additional observations from a re-analysis of the deposited data

Results flagged for a closer look

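In 16 sets of embryos of 1 factor in 1 group of 5 or 10 embryos, 3 held a sample whose gap to its neighbour was too wide for the range of the group (Dixon's critical value at 95%). Chance gives about 1 in 20 for values without ties. That rate does not hold for *Sox2* and *Prdm14*, where most HOM embryos share the floor and a single embryo above it is enough. *Sox2* in HOM-f was at 3.74 log2 RPM (9 reads), with the 9 other HOM embryos on the floor of 1.86. *Prdm14* in HOM-g was at 5.67 (25 reads), and the next highest HOM embryo was at 2.299. *Tbx3* in HET2-e, the only HET2 embryo of its litter, was at 3.74 (23 reads), below the next at 5.32.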

How the results depend on the processing

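Counts of the 10 factors that passed kept within 1.5 times of the reported count in 98 of 106 alternative fits. Most of these fits belonged to comparisons with a count of 0. The 8 fits that moved were all in HET1 against WT embryos (18 fits) or HET1 litter 2 against litter 1 (10 fits). For HET1 against WT embryos the count of 1 became 3 with the deposited values and no common floor (*Pou5f1*, *Nanog* and *Sox2*), 2 with voom on recovered reads (*Pou5f1* and *Nanog*) and 0 with litter as a random effect, with litter means as replicates and without WT-j and WT-k. Leaving out 1 litter at a time gave 0 to 1. *Nanog*, at -0.08 in the reported fit, turned to 1.06 without the floor and 1.19 with voom, settings in which the value of a gene without reads depends on depth. For HET1 litter 2 against litter 1 the count of 3 became 1 with voom, 2 under median scaling and 4 with the filter at 3 log2 RPM, where *Sall4* passed. Without the 4 embryos with few genes it was 3, with *Sall4* in place of *Nr5a2*, and *Klf2*, *Ctnnb1*, *Alpl*, *L1td1* and *Pou2f3* no longer passed there, nor *Dppa3* and *Gm19553* in HET1 against WT embryos. Counts of 0 in the 5 other comparisons stayed 0 in all alternatives. With litter means as replicates *Dppa2* and *Dppa4*, at -6.47 and -5.26 in HOM against WT embryos, no longer passed. There each group of a litter gave a mean, so HET2 and HOM littermates entered apart, and 1 HET2 mean was a single embryo. With mating number as a replicate block *Pou5f1* was 1.85 higher in HET1 embryos (adjusted p = 0.0184, limma), and the block changed no count of factors, while the calls of *Stat3*, *Ctnnb1* and *Dppa3* were lost (adjusted p of 0.0522, 0.0584 and 0.0652).

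The number of all genes called moved by over 1.5 times in 52 of 106 fits. For HET1 against WT embryos, 745 became 4054 without the floor, 2520 with voom, 390 without a filter, 0 with litter as a random effect or litter means as replicates, and 6 to 2339 when 1 litter was left out. Depth limits *Nanog*, *Sox2* and *Prdm14*: 3 reads correspond to 1.64 to 12.1 RPM in HET1 and 0.948 to 4.7 RPM in WT embryos.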
